A study of Mus musculus with 7 samples.

Results

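RNA modification enzymes were compared between LLC1 cells in which Ddx54 was knocked down and wild-type LLC1 cells. The genes were taken by symbol: every name in the count table that starts with Mettl, Trmt, Nsun, Alkbh or Adar, with Dus and a digit, or with Pus and a digit or the letter l. That gave 72 of 24419 genes. LLC1 is a cultured mouse Lewis lung carcinoma line, and Ddx54 is a nucleolar DEAD-box RNA helicase. Polyadenylated RNA was measured in 3 libraries of genotype DDX54 KD, made with an shRNA, and in 4 libraries of genotype WT DDX54, all grown in the same serum-containing medium. Neither a control construct for the wild-type cells nor a number of clones is given. Whether the libraries are separate cultures is not given either, so p-values here measure the spread between these libraries, which may be technical.

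These enzymes change RNA after it has been transcribed. Trmt, Mettl and Nsun proteins add methyl groups to tRNA, rRNA and mRNA, Pus enzymes turn uridine into pseudouridine, Dus enzymes reduce uridine to dihydrouridine, Adar enzymes deaminate adenosine to inosine, and several Alkbh dioxygenases remove methyl groups. In tumour cells they are studied for their roles in tRNA stability, decoding and mRNA turnover. A shared prefix does not mean a shared substrate: sorted by main known substrate, 49 of the 72 act on RNA, and 23 act on protein, DNA or small molecules or have no settled substrate, such as Mettl21a, which methylates heat shock proteins, and Alkbh2, a DNA repair enzyme.

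The libraries held 14987324 to 17702932 counts in knockdown and 15293346 to 18673395 counts in wild-type. Ddx54 fell to 53.8% of wild-type, at 43.6 ± 3.81 CPM in knockdown and 81.2 ± 2.08 CPM in wild-type (SD, n = 3 and n = 4, as throughout; log2 fold change -0.90, adjusted p = 6.55e-09), and no library went against its label. CPM here means counts per 1000000, with library sizes scaled by TMM factors. The pre-ribosomal RNA Rn45s held 7.96 to 9.07% of counts in knockdown and 10.7 to 12.5% in wild-type, and its part in the results was not tested beyond removing it, which kept all 9 calls given here. Summed over each marker list, 7 epithelial markers ranged over 149 to 168 CPM in knockdown and 239 to 249 CPM in wild-type, nearly all from Krt18 and Krt8, while Epcam and Cdh1 had 3 counts each in all libraries together and Cldn4 had 0. Krt18 and Krt19 fell (Krt18 132 CPM in knockdown and 217 CPM in wild-type, log2 fold change -0.72, adjusted p = 4.62e-10; Krt19 1.08 CPM in knockdown and 4.39 CPM in wild-type, log2 fold change -2.03, adjusted p = 0.000811), while Krt8 did not pass (Krt8 23.6 CPM in knockdown and 20.3 CPM in wild-type, log2 fold change 0.22, adjusted p = 0.373), and their part in the results was not tested. The 5 lung epithelial markers ranged over 0 to 0.814 CPM in knockdown and 0 to 1.96 CPM in wild-type, with Nkx2-1 at 0, so defining markers of lung epithelium were at or near 0. The 6 leukocyte markers ranged over 2.80 to 4.72 CPM in knockdown and 2.13 to 5.03 CPM in wild-type, nearly all from Cd68 and with Cd3e at 0. The 4 endothelial markers ranged over 0.0543 to 0.776 CPM in knockdown and 0.178 to 0.784 CPM in wild-type, with Cdh5 and Tek at 0, and the 6 fibroblast markers over 28.9 to 32.5 CPM in knockdown and 23.5 to 30.2 CPM in wild-type, mostly from Pdgfra.

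Of the 72 genes, 63 had enough counts to be tested. In knockdown 3 rose, namely Trmt10a, Trmt6 and Trmt1l, and 6 fell, namely Nsun2, Trmt1, Trmt112, Pus3, Dus4l and Mettl20. The other 54 did not pass the threshold of adjusted p under 0.05 (edgeR quasi-likelihood test, Benjamini-Hochberg over all 11594 tested genes). The 9 are 14.3% of the tested enzymes, against 29.4% of all tested genes called (14.1% higher and 15.3% lower), so the share was below that of the table. The median log2 fold change of the 63 was -0.003, against 0.001 over all tested genes, and the median absolute change was 0.18, against 0.27. The ranges of the groups did not overlap for 4 enzymes that were higher and 9 that were lower in knockdown, 20.6% of the 63, against 35.1% of all tested genes (17.5% higher and 17.6% lower). In bulk libraries, fewer cells of a type and less RNA per cell cannot be told apart.

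**Figure D1:**
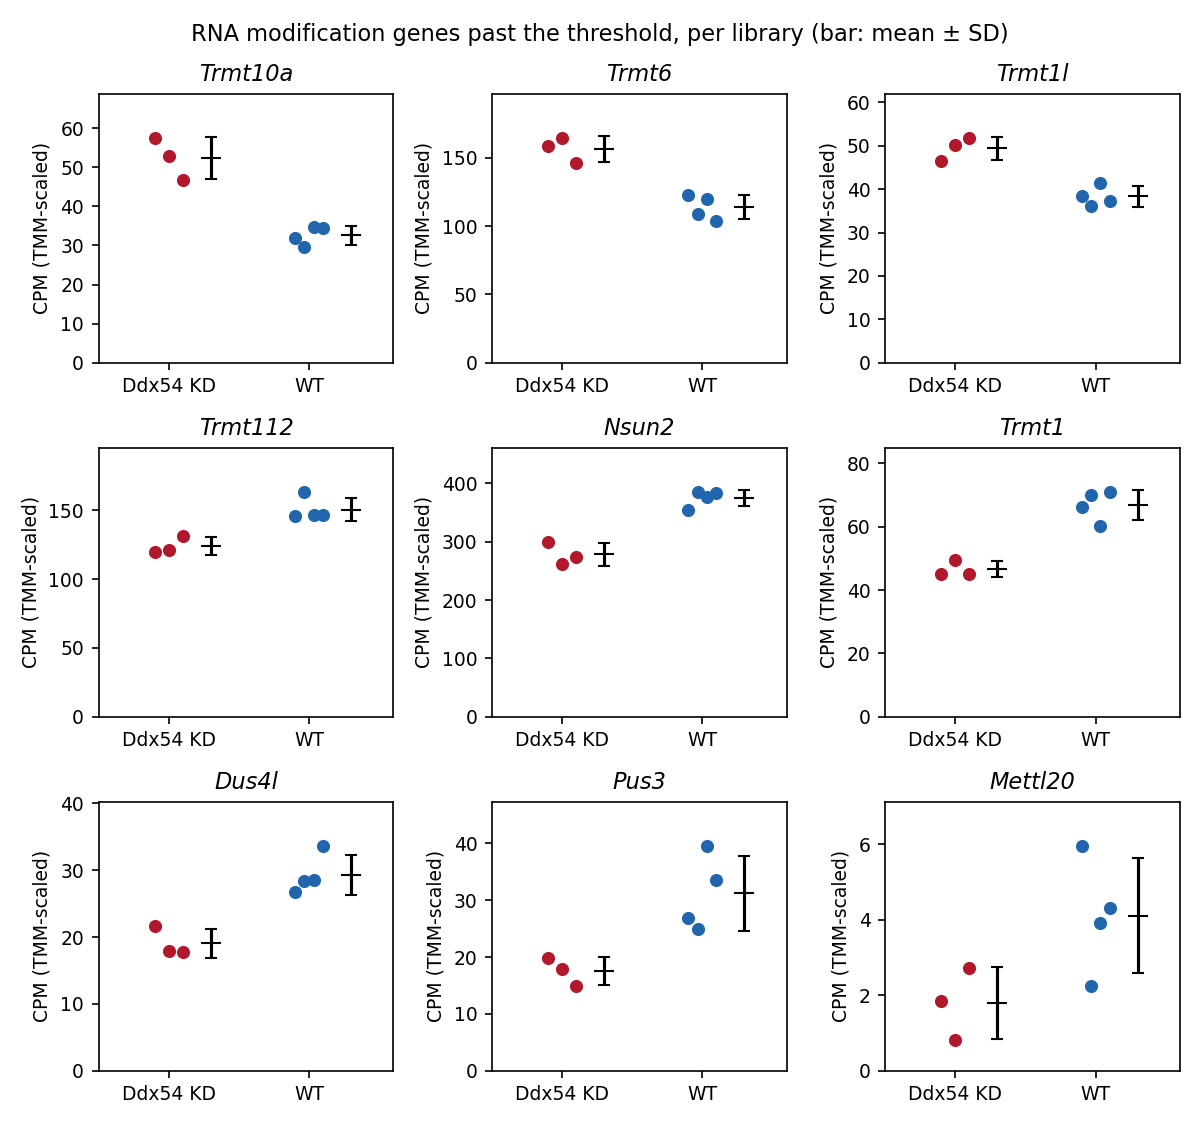
CPM of the 9 enzymes past the threshold in each library, Ddx54 knockdown (3 libraries) left of wild-type (4 libraries), with mean and SD. The groups are apart in 8 panels and overlap for Mettl20, where the highest knockdown library is at 2.73 CPM and the lowest wild-type library at 2.24 CPM.

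The calls went with expression level. The median level of the 63 was 14.1 CPM in knockdown and 14.8 CPM in wild-type, lower than the 24.3 CPM in knockdown and 24.8 CPM in wild-type of all tested genes. At a mean of 30 CPM or more, 6 of 15 enzymes were called (40.0%), against 44.3% of 5255 genes. Between 10 and 30 CPM 2 of 29 were called (6.9%), against 24.6% of 2809 genes, and under 10 CPM 1 of 19 (5.26%), against 10.9% of 3530 genes. These level ranges were chosen after the values were seen, and the differences between the shares were not tested.

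**Figure D2:**
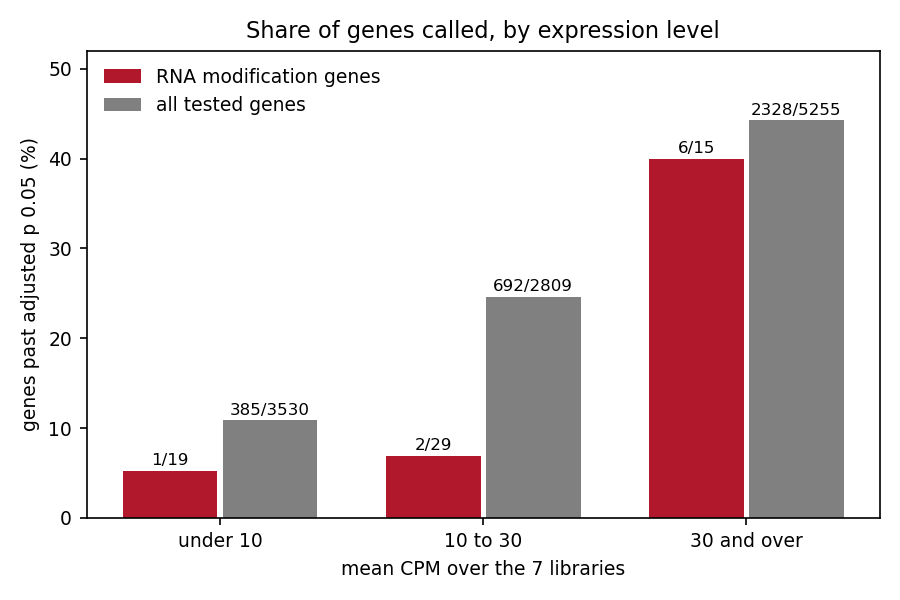
Percentage of tested genes with adjusted p under 0.05 by range of mean CPM, for the RNA modification enzymes and for all tested genes, which include them. The bars are closest at 30 CPM and over (40.0% and 44.3%) and furthest apart between 10 and 30 CPM (6.9% and 24.6%).

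The start-site sequence is shown for 3 of the 9: the largest rise (Trmt10a), the largest fall among those above 10 CPM (Pus3) and the one with the most counts (Nsun2). Each run holds 250 bases before to 50 after a RefSeq start (GRCm38.p6), 5′ to 3′ on the plus strand, which is the strand of all 3 genes. The windows are chr3:138143549-138143848 for Trmt10a, whose other 2 listed starts hold no match, chr9:35558310-35558609 for Pus3 and chr13:69611766-69612065 for Nsun2. Capitals mark CACGTG, the E-box that Myc and related factors can bind; Nsun2 is shown as a window with none. The Nsun2 window lies inside the gene's GENCODE span, which begins with an annotated transcript further upstream. The Trmt10a window shown also lies inside that gene's GENCODE span, which begins at 138143448, and the other 2 Trmt10a starts are further upstream.
Trmt10a: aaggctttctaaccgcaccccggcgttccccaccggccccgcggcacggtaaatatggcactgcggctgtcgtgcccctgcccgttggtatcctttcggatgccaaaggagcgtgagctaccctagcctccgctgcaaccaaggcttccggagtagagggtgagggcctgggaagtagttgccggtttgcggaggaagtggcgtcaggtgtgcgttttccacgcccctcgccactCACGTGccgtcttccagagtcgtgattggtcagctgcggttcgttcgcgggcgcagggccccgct
Pus3: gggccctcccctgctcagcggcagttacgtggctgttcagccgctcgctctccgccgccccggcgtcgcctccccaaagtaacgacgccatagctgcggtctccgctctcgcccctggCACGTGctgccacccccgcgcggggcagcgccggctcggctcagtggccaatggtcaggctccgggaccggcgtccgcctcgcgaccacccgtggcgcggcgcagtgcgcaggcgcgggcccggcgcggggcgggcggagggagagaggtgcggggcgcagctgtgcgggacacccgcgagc
Nsun2: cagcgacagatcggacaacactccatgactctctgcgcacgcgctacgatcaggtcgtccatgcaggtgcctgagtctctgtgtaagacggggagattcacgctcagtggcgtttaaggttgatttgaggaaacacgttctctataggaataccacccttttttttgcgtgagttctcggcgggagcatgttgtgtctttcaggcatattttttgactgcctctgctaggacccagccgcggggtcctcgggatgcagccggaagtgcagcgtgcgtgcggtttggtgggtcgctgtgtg
RefSeq windows were found for 55 of the 63 tested enzymes, and both strands were searched. Among the called enzymes 7 had a window, and none was found for Trmt1 or Trmt6, which were not searched. CACGTG was present in 9 of the 55 (16.4%), against 12.0% of 9146 tested genes and 8.09% of all 27025 genes with a window. The 9 were Alkbh7, Mettl1, Pus1, Pus3, Pus7, Pusl1, Trmt10a, Trmt61a and Trmt61b, of which 1 rose, 1 fell and 7 did not pass. TGATGNAAN, a composite of ATF4 and C/EBP sites, was present in Pus7 alone (1.82%), against 2.69% of tested genes and 4.5% of all genes. TGACGTCA, the cyclic AMP response element, was present in Dus2, Mettl4, Pus10, Trmt5 and Trmt61a (9.09%), against 3.77% of tested genes and 2.03% of all genes. CACGTG and TGACGTCA share the letters ACGT, and neither contains the other. Matches describe the letters in these windows only.

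Of 22 genes of tRNA methylation, 3 rose, 2 fell and 17 did not pass, which is 22.7% called, against 29.4% of all tested genes, with a median log2 fold change of 0.07. The 22 are not all methyltransferases: they include Trmt112, an activating protein, and Trmt6, a non-catalytic subunit, both among the 5 that passed, and the demethylase Alkbh1. Trmt10a, which methylates guanosine in cytosolic tRNA (chromosome 3, 138143448 to 138159821, plus strand, GRCm38), was at 57.4, 52.9 and 46.8 CPM in knockdown, against 31.9, 29.5, 34.7 and 34.4 CPM in wild-type. Every knockdown library was above every wild-type library (log2 fold change 0.68, SE 0.116, adjusted p = 2.35e-05). Its mitochondrial paralog Trmt10c, a subunit of mitochondrial RNase P, was at 29.95, 30.9 and 27.6 CPM in knockdown, against 29.9, 27.3, 41.6 and 31.6 CPM in wild-type, with overlapping groups (-0.14, 95% interval -0.43 to 0.14). Trmt10b, the remaining paralog, was at 8.10 ± 0.851 CPM in knockdown and 7.81 ± 1.81 CPM in wild-type and did not pass (0.05, adjusted p = 0.909). Within a library, on counts per kilobase of exon, the ratio of Trmt10a to Trmt10c was 0.721, 0.645 and 0.638 in knockdown, against 0.402, 0.406, 0.314 and 0.410 in wild-type, again with no overlap.

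The paralogs Trmt1 and Trmt1l went in opposite directions. Trmt1, which dimethylates guanosine in tRNA (chromosome 8, 84686307 to 84699808, plus strand), was at 45.2, 49.5 and 45.1 CPM in knockdown, against 66.3, 70.02, 60.4 and 70.9 CPM in wild-type. All knockdown libraries lay below all wild-type libraries (-0.52, SE 0.101, adjusted p = 0.000134). Trmt1l, its paralog (chromosome 1, 151428542 to 151458161, plus strand), was at 46.5, 50.1 and 51.7 CPM in knockdown, against 38.5, 36.1, 41.5 and 37.2 CPM in wild-type, with every knockdown library above every wild-type library (0.37, SE 0.111, adjusted p = 0.0113; lost on leaving out knockdown replicate 3, with adjusted p = 0.0626). The ratio of Trmt1 to Trmt1l, on counts per kilobase of exon, was 1.26, 1.29 and 1.14 in knockdown, against 2.24, 2.53, 1.89 and 2.48 in wild-type. A total of 5 ratios were computed, chosen after the values were seen and with no test, and 2 had groups apart. For Trmt1 over Trmt1l this was fixed beforehand, since Trmt1 was lower and Trmt1l higher in every knockdown library. The groups overlapped for Trmt6 over Trmt61a, for Mettl14 over Mettl3 (6.06 ± 2.04 in knockdown and 7.21 ± 2.24 in wild-type) and for Mettl1 over Wdr4 (1.05 ± 0.147 in knockdown and 0.834 ± 0.141 in wild-type).

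**Figure D3:**
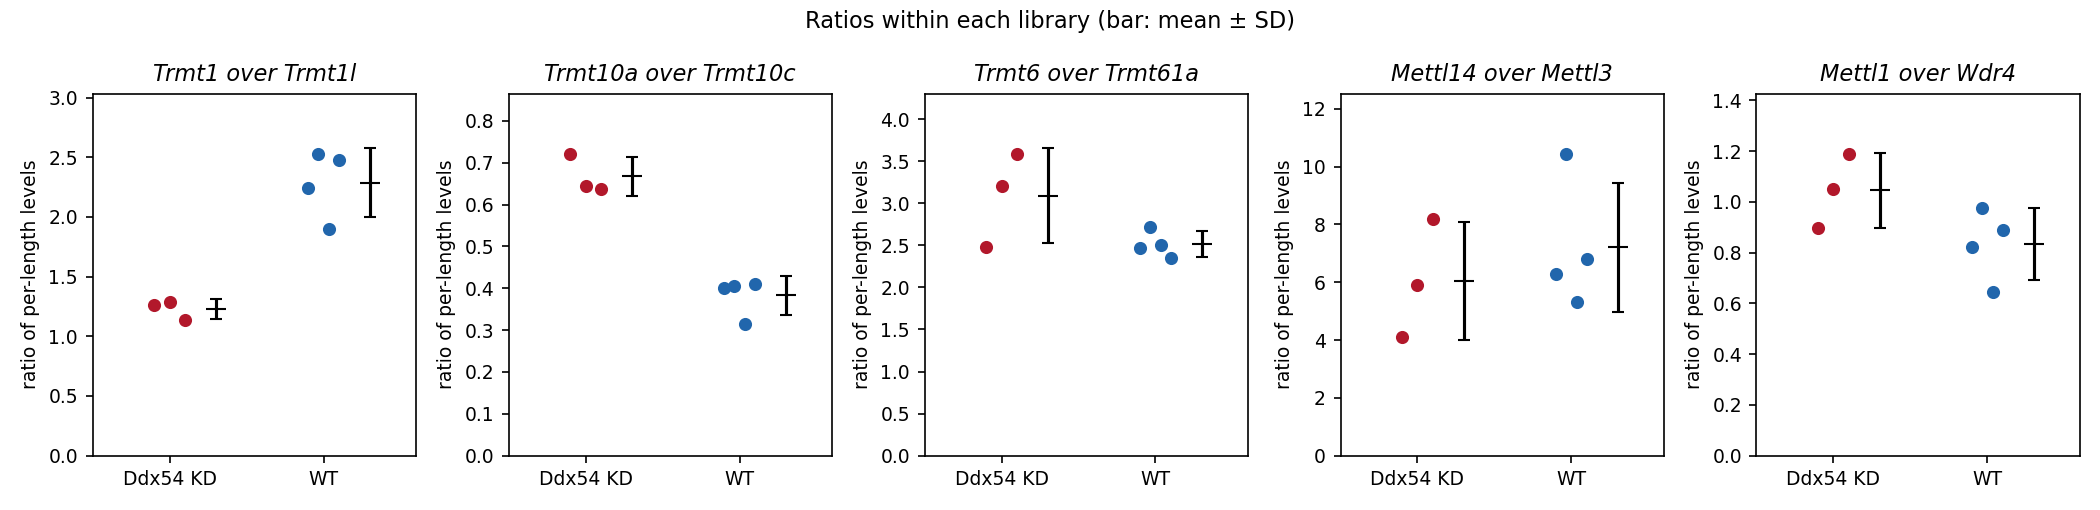
Ratios of counts per kilobase of exon between a pair of genes within each library, Ddx54 knockdown left of wild-type, with mean and SD. Trmt1 over Trmt1l averages 1.23 ± 0.0812 in knockdown and 2.29 ± 0.289 in wild-type and Trmt10a over Trmt10c 0.668 ± 0.0463 in knockdown and 0.383 ± 0.0459 in wild-type, both without overlap, while the ranges of the groups overlap for the other 3: Trmt6 over Trmt61a, Mettl14 over Mettl3 and Mettl1 over Wdr4.

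Trmt6 and Trmt61a are the subunits of the cytosolic tRNA adenosine methyltransferase. Trmt6, the subunit that binds tRNA without catalysing the reaction (chromosome 2, 132804207 to 132816055, minus strand), was at 159, 164 and 146 CPM in knockdown, against 123, 109, 120.1 and 104 CPM in wild-type. It rose with no overlap between the groups (0.46, SE 0.0770, adjusted p = 2.08e-05). Trmt61a, the catalytic subunit, was at 28.9, 23.2 and 18.4 CPM in knockdown, against 22.6, 18.1, 21.6 and 19.95 CPM in wild-type, with overlapping groups, and did not pass (0.19, 95% interval -0.13 to 0.52). The ratio of Trmt6 to Trmt61a per kilobase was 3.09 ± 0.562 in knockdown and 2.51 ± 0.154 in wild-type, with overlap, so a change in their proportion was not separable from the spread. Trmt61b, the mitochondrial enzyme, was at 3.30 ± 1.44 CPM in knockdown and 5.27 ± 2.26 CPM in wild-type and did not pass (adjusted p = 0.182); it passed without wild-type replicate 2 (-0.92, adjusted p = 0.0476).

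Trmt112, a small protein that stabilises and activates several methyltransferases (chromosome 19, 6909698 to 6911049, plus strand), was at 120.0, 121 and 131 CPM in knockdown, against 146, 163, 146 and 146 CPM in wild-type. It fell without overlap (-0.28, SE 0.0739, adjusted p = 0.00402). The gene shares 409 exon bases with Prdx5, an antioxidant enzyme gene on the opposite strand, which was at 35.97 ± 1.25 CPM in knockdown and 68.7 ± 4.79 CPM in wild-type (-0.93, adjusted p = 1.43e-08). The strand setting of the counting is not given in the sources used here, and the annotation holds pseudogenes of Trmt112, so its counts are uncertain.

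Enzymes known to work with Trmt112 were looked at after the values were seen, and they differed in direction. N6amt1, which methylates a translation release factor, was at 62.7, 61.4 and 56.9 CPM in knockdown, against 40.9, 46.2, 40.1 and 41.98 CPM in wild-type and rose without overlap (0.51, SE 0.105, adjusted p = 0.000264). Wbscr22, the small-subunit rRNA methyltransferase also named Bud23, rose, at 55.6 ± 2.54 CPM in knockdown and 44.5 ± 4.50 CPM in wild-type (0.32, adjusted p = 0.024; lost on leaving out knockdown replicate 2 or 3 or wild-type replicate 2, with adjusted p of 0.0571 to 0.115). Thumpd3, a tRNA guanosine methyltransferase, fell, at 22.6 ± 1.68 CPM in knockdown and 29.8 ± 3.23 CPM in wild-type (-0.40, adjusted p = 0.0282; lost on leaving out knockdown replicate 2 or 3 or wild-type replicate 1 or 2, with adjusted p of 0.0609 to 0.123). The other 4 did not pass. Alkbh8, which completes wobble-uridine modification in tRNA, was at 10.6, 14.5 and 16.9 CPM in knockdown, against 9.92, 11.1, 7.39 and 10.7 CPM in wild-type, with overlap (0.52, adjusted p = 0.0607). It passed without knockdown replicate 1 (0.68, adjusted p = 0.0285) and also on leaving out wild-type replicate 2 (0.58, adjusted p = 0.0468). Mettl5, an rRNA adenosine methyltransferase, was at 7.69 ± 2.03 CPM in knockdown and 7.61 ± 1.70 CPM in wild-type (0.01, 95% interval -0.50 to 0.53); it shares 169 exon bases with the far more abundant Ssb on the opposite strand, so its counts are uncertain. Trmt11, a tRNA guanosine methyltransferase, was at 13.8 ± 2.90 CPM in knockdown and 12.95 ± 3.06 CPM in wild-type (adjusted p = 0.8), and Thumpd2, a snRNA methyltransferase, at 5.32 ± 1.15 CPM in knockdown and 7.20 ± 1.29 CPM in wild-type (adjusted p = 0.252).

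Mettl1, the catalytic subunit of the tRNA 7-methylguanosine methyltransferase, was at 14.3, 12.2 and 14.6 CPM in knockdown, against 11.5, 14.5, 10.5 and 13.6 CPM in wild-type, with overlapping groups (0.13, 95% interval -0.26 to 0.52). Its partner Wdr4 was at 24.9 ± 4.31 CPM in knockdown and 28.2 ± 1.73 CPM in wild-type and did not pass (-0.18, 95% interval -0.47 to 0.10). Alkbh1, a tRNA demethylase, was at 22.8 ± 2.40 CPM in knockdown and 18.8 ± 1.95 CPM in wild-type and did not pass (0.27, adjusted p = 0.198).

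Among the cytosine-5 methyltransferases Nsun2 fell and the other 4 tested did not pass (20.0% called, against 29.4% of all tested genes). Nsun2, which methylates cytosine in tRNA and other RNAs (chromosome 13, 69533746 to 69635780, plus strand), was at 299, 261 and 273 CPM in knockdown, against 355, 385, 376 and 384 CPM in wild-type. Every knockdown library was below every wild-type library, and the knockdown mean was 74.2% of wild-type (-0.43, SE 0.0647, adjusted p = 3.28e-06). With 4204 to 6511 counts per library, it had the most counts of the 63. Nsun5, which methylates large-subunit rRNA, was at 16.05, 14.3 and 13.8 CPM in knockdown, against 19.7, 13.4, 17.6 and 13.3 CPM in wild-type, with overlap (-0.12, 95% interval -0.49 to 0.25). Nsun3, which methylates a mitochondrial tRNA, was at 0.969 ± 0.862 CPM in knockdown and 2.17 ± 0.719 CPM in wild-type and its interval was wide (-1.17, 95% interval -2.53 to 0.19).

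Of 6 pseudouridine synthases of the Pus family, Pus3 fell and 5 did not pass (16.7% called, against 29.4% of all tested genes). Pus3, which acts on the anticodon arm of tRNA (chromosome 9, 35558595 to 35567401, plus strand), was at 19.8, 17.9 and 14.96 CPM in knockdown, against 26.9, 24.9, 39.5 and 33.6 CPM in wild-type. The groups did not overlap, and the knockdown mean was 56.3% of wild-type (-0.83, SE 0.161, adjusted p = 0.000142). Its exons share 2618 bases with Hyls1, a centriole gene on the opposite strand, which was at 4.42 ± 1.40 CPM in knockdown and 5.67 ± 0.385 CPM in wild-type and did not pass (-0.36, adjusted p = 0.422). The shared bases are most of the 2972 exon bases of Pus3. As the strand setting of the counting is unknown, reads of the shared bases may have been counted for either gene or for neither. Pus3 counts are uncertain on that account. Pus7, which modifies tRNA and mRNA, was at 88.6, 79.8 and 67.1 CPM in knockdown, against 97.2, 76.2, 74.8 and 84.7 CPM in wild-type, with overlap (-0.08, 95% interval -0.29 to 0.12). Pus1, which acts on cytosolic and mitochondrial tRNA, was at 24.6 ± 2.09 CPM in knockdown and 24.4 ± 1.84 CPM in wild-type (0.01, 95% interval -0.28 to 0.30). Pus10, a tRNA pseudouridine synthase, was at 9.79 ± 2.63 CPM in knockdown and 9.79 ± 2.43 CPM in wild-type (-0.003, 95% interval -0.48 to 0.47).

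Of the 4 dihydrouridine synthases, Dus4l fell (25.0% called, against 29.4% of all tested genes). Dus4l (chromosome 12, 31640050 to 31654826, minus strand) was at 21.6, 17.9 and 17.8 CPM in knockdown, against 26.7, 28.3, 28.6 and 33.6 CPM in wild-type. All knockdown libraries were below all wild-type libraries (-0.62, SE 0.146, adjusted p = 0.0013). Dus2, which acts on cytosolic tRNA, was at 10.1, 12.05 and 14.3 CPM in knockdown, against 15.8, 14.5, 15.6 and 17.5 CPM in wild-type, and did not pass although the groups did not overlap (-0.38, adjusted p = 0.12). Dus3l was at 20.2, 18.9 and 23.1 CPM in knockdown, against 15.7, 14.8, 15.9 and 18.7 CPM in wild-type, on the other side and also without overlap, and did not pass (0.34, adjusted p = 0.112). Dus1l was at 25.7 ± 2.60 CPM in knockdown and 26.2 ± 1.24 CPM in wild-type (-0.03, 95% interval -0.31 to 0.25).

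None of the 5 genes of mRNA and snRNA adenosine methylation passed with edgeR (0.0% called, against 29.4% of all tested genes) or with limma-voom. With edgeR 2 had an unadjusted p under 0.05, and DESeq2 called 1, Alkbh5. A list of 5 genes is too short for this share to be read as a result. Mettl3, the catalytic subunit of the main N6-methyladenosine writer, was at 5.97, 4.18 and 3.45 CPM in knockdown, against 4.96, 2.85, 5.36 and 4.68 CPM in wild-type, with overlap and only 42 to 100 counts per library (0.02, 95% interval -0.65 to 0.69). It shares 933 exon bases with Tox4 on the opposite strand, which was at 39.2 CPM in knockdown and 39.05 CPM in wild-type. Mettl14, the partner subunit that binds RNA, was at 35.8, 35.98 and 41.2 CPM in knockdown, against 45.5, 43.5, 41.7 and 46.4 CPM in wild-type, lower in every knockdown library (-0.24, adjusted p = 0.126).

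Mettl16, a methyltransferase of a spliceosomal RNA and of selected mRNAs, was at 149.9, 131 and 130.4 CPM in knockdown, against 112, 122, 119 and 149 CPM in wild-type, with overlap (0.13, 95% interval -0.05 to 0.30). It passed without wild-type replicate 4 (0.22, adjusted p = 0.044). Alkbh5, a demethylase of N6-methyladenosine, was at 134, 137 and 149 CPM in knockdown, against 150.5, 159.7, 166 and 157 CPM in wild-type. The groups did not overlap, and it did not pass with edgeR (-0.18, adjusted p = 0.0634), while it passed as lower with DESeq2 (-0.18, adjusted p = 0.0495) and also on leaving out wild-type replicate 1 (-0.20, adjusted p = 0.046).

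Neither tested adenosine deaminase passed with edgeR (0.0% called, against 29.4% of all tested genes), DESeq2 or limma-voom. With edgeR 0 had an unadjusted p under 0.05. Adar, which edits double-stranded RNA, was at 14.7, 13.7 and 17.1 CPM in knockdown, against 9.65, 15.5, 15.4 and 15.8 CPM in wild-type, with overlap (0.11, 95% interval -0.28 to 0.50). Adarb1, which edits neuronal receptor transcripts among others, was at 14.3, 15.1 and 12.1 CPM in knockdown, against 12.7, 9.24, 10.6 and 10.7 CPM in wild-type, also with overlap (0.36, adjusted p = 0.179).

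Of the 23 enzymes set apart by substrate, 16 were tested and Mettl20 alone passed (6.25% called, against 29.4% of all tested genes). Mettl20, now Etfbkmt, methylates a lysine of the mitochondrial electron transfer flavoprotein (chromosome 6, 149139849 to 149151171, plus strand). It was at 1.85, 0.814 and 2.73 CPM in knockdown, against 5.94, 2.24, 3.92 and 4.32 CPM in wild-type, with overlap (-1.20, SE 0.451, adjusted p = 0.0422). It rested on 15 to 109 counts per library, and the call was lost on leaving out knockdown replicate 1 or 2 or wild-type replicate 1, 3 or 4, with adjusted p of 0.0629 to 0.212. Mettl7b, a membrane-bound methyltransferase of thiols, was at 1.27 ± 0.519 CPM in knockdown and 2.92 ± 1.72 CPM in wild-type and did not pass (-1.21, adjusted p = 0.125); it passed without wild-type replicate 3 (-1.54, adjusted p = 0.0279).

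**Figure D4:**
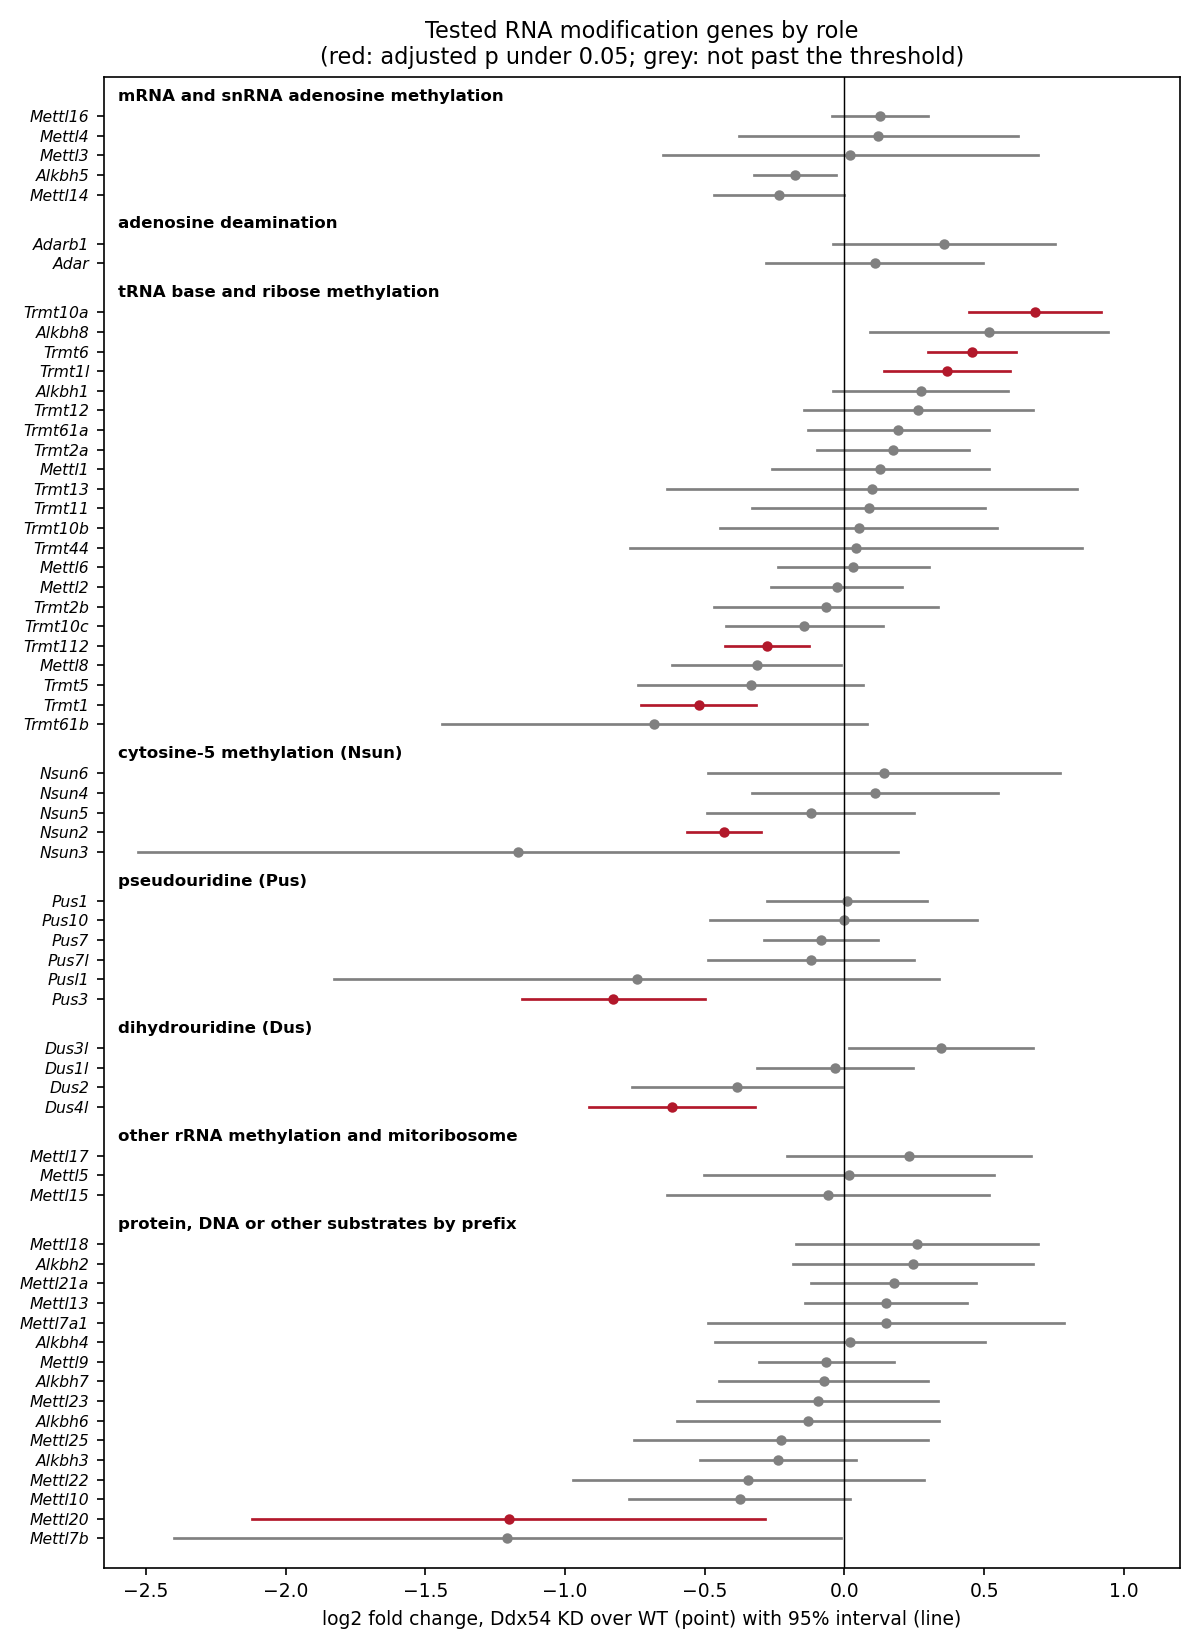
Log2 fold change, Ddx54 knockdown over wild-type, of the 63 tested enzymes with 95% intervals, grouped by role, with genes past adjusted p 0.05 marked. The marked genes are 5 in tRNA methylation, 1 each among the Nsun, Pus and Dus enzymes and 1 among the enzymes with other substrates, and the point estimates run from -1.21 (Mettl7b) to 0.68 (Trmt10a).

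Of the 54 enzymes that did not pass, 28 had an estimate above 0 and 26 below 0, and 42 lay within 0.3 log2 units of 0. The 95% interval stayed within 0.5 log2 units of 0 for 19 of them, and for the rest it reached further. An unadjusted p under 0.05 was found for 7, namely Alkbh5, Alkbh8, Dus2, Dus3l, Mettl14, Mettl7b and Mettl8. Adarb2, Mettl11b, Mettl21c, Mettl21e, Mettl7a2 and Mettl7a3 had no count, which allows up to 0.0259 CPM over the 7 libraries together (3 counts, counting error only). Mettl21b had 5 counts in all, Mettl24 had 8 and Nsun7 had 36, below the filter. Mettl7a1, Mettl7a2 and Mettl7a3 are close copies of each other, so counts of this group are uncertain.

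Levels can be roughly compared between genes per kilobase of exon, scaled in each library to a sum of 1000000 over all genes with a length. TMM factors were not applied, so changes between groups on this scale differ from those in CPM. The length counts all annotated exons of a gene, whichever transcripts the cells make, so the order of genes is approximate. On that scale Trmt112 was highest, at 360.4 ± 17.8 in knockdown and 416 ± 13.2 in wild-type, and Nsun2 followed at 174 ± 11.6 in knockdown and 223 ± 10.3 in wild-type. Trmt6 was at 104 ± 6.54 in knockdown and 72.2 ± 5.91 in wild-type, and Alkbh5 at 83.7 ± 4.84 in knockdown and 90.1 ± 4.12 in wild-type, so Trmt6 was above Alkbh5 in knockdown and below it in wild-type. Dus4l was at 34.5 ± 3.87 in knockdown and 50.4 ± 6.35 in wild-type, and Mettl2, a tRNA cytosine methyltransferase, at 51.7 ± 1.23 in knockdown and 50.3 ± 8.83 in wild-type. In wild-type these last 2 did not differ beyond their spread. The lowest tested enzyme was Nsun3, at 0.569 ± 0.506 in knockdown and 1.23 ± 0.427 in wild-type. The median of the 63 was 13.2 in knockdown and 13.98 in wild-type, against 18.9 in knockdown and 17.9 in wild-type over all tested genes. These medians compare the enzymes with all tested genes within a group, not the groups with each other. Exons of 29 of the 63 overlap another gene model, and 26 have an opposite-strand gene whose start lies within 1000 bases. In 20 of these pairs both genes were tested, and 3 of the 20 neighbours passed, against 29.4% of all tested genes. The 3 were Prdx5 beside Trmt112, Dcaf17 beside Mettl8 and Ranbp1 beside Trmt2a.

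Wherever the start lies, 23 tested enzymes share exon bases with a tested gene on the opposite strand, in 27 pairs, and without the strand setting the counts of such a pair are uncertain. Counted after the values were seen, the opposite-strand gene passed in 9 pairs (33.3%, against 29.4% of all tested genes): the 3 just named, Srsf2 with Mettl23, Ssb with Mettl5, Itga7 with Mettl7b, Lrrc39 and Sass6 with Trmt13, and Dgcr8 with Trmt2a. Ssb, an RNA-binding protein, was at 1427 CPM in knockdown and 1224 CPM in wild-type (0.22, adjusted p = 0.00265). Srsf2, a splicing factor, shares 460 bases with Mettl23 and was at 745 CPM in knockdown and 526 CPM in wild-type (0.50, adjusted p = 8.9e-07), while Mettl23 was at 9.90 ± 1.41 CPM in knockdown and 10.6 ± 1.61 CPM in wild-type and did not pass (adjusted p = 0.785). Of the called enzymes other than Trmt112, Trmt10a shares 457 bases with Mttp, Nsun2 165 with Papd7, Trmt1l 158 with Rnf2 and Pus3 2618 with Hyls1, and none of these 4 genes passed with edgeR (unadjusted p under 0.05 in 1).

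The cofactors and other enzymes of RNA modification were taken as a list of 89 further genes in the table. Of the 88 tested, 12 rose, 7 fell and 69 did not pass, which is 21.6% called, against 29.4% of all tested genes, with a median log2 fold change of 0.05. The counts moved with single libraries: 5 rose and 4 fell without knockdown replicate 2, and 6 rose and 3 fell without knockdown replicate 3. Without wild-type replicate 1, 2 or 4, 4 fell. Of the 19 genes past the threshold, 6 kept the call whichever library was left out, namely Igf2bp1, Igf2bp2, Hsd17b10, Wdr6, Ftsj3 and Nop56, and 13 lost it in at least 1 such fit.

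Among 16 cofactors, erasers and readers of N6-methyladenosine 4 rose, 2 fell and 10 did not pass, which is 37.5% called, against 29.4% of all tested genes (14.1% higher and 15.3% lower). The median level of this list was 74.1 CPM in knockdown and 70.5 CPM in wild-type. Of all tested genes at a mean of 30 CPM or more, 44.3% were called. Igf2bp1, an mRNA-binding protein described as a reader, was at 68.7, 71.2 and 70.3 CPM in knockdown, against 42.6, 42.8, 43.1 and 45.4 CPM in wild-type. It rose with no overlap (0.69, SE 0.0983, adjusted p = 1.36e-06). Its paralog Igf2bp2 was at 367, 358 and 362 CPM in knockdown, against 427, 459, 476 and 452 CPM in wild-type, and fell, also with no overlap (-0.32, SE 0.0609, adjusted p = 9.95e-05). Igf2bp3, the remaining paralog, rose, at 57.1 ± 9.13 CPM in knockdown and 45.1 ± 6.16 CPM in wild-type (0.34, adjusted p = 0.0301; lost on leaving out knockdown replicate 2 or 3 or wild-type replicate 2 or 4, with adjusted p of 0.0665 to 0.199). Fto, a demethylase, fell, at 54.03 ± 3.38 CPM in knockdown and 65.6 ± 7.55 CPM in wild-type (-0.28, adjusted p = 0.0376; lost on leaving out knockdown replicate 1 or 2 or wild-type replicate 1 or 4, with adjusted p of 0.0879 to 0.156). Wtap, which anchors the writer complex, was at 39.1 ± 4.81 CPM in knockdown and 35.6 ± 3.53 CPM in wild-type and did not pass (0.14, 95% interval -0.12 to 0.39). Zc3h13, also of that complex, rose, at 186 ± 8.96 CPM in knockdown and 156 ± 19.8 CPM in wild-type (0.26, adjusted p = 0.0135). The reader Ythdc1 rose, at 206 ± 3.85 CPM in knockdown and 179 ± 9.67 CPM in wild-type (0.20, adjusted p = 0.0246). The Zc3h13 call was lost in 3 fits that left out a library, and the Ythdc1 call in 5.

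Among 37 other tRNA modification genes 2 rose, 3 fell and 32 did not pass (13.5% called, against 29.4% of all tested genes). Hsd17b10, the mitochondrial dehydrogenase that is a subunit of RNase P and of the tRNA methyltransferase with Trmt10c, was at 91.8, 81.4 and 92.8 CPM in knockdown, against 149.7, 159, 143 and 140.4 CPM in wild-type. It fell without overlap (-0.74, SE 0.0788, adjusted p = 5.29e-09), while Trmt10c did not pass. Wdr6, a cofactor of tRNA ribose methylation, rose, at 89.9 ± 6.73 CPM in knockdown and 68.8 ± 2.75 CPM in wild-type (0.39, SE 0.0875, adjusted p = 0.000857). Trit1, the tRNA isopentenyltransferase, fell, at 17.9 ± 3.61 CPM in knockdown and 24.1 ± 2.94 CPM in wild-type (-0.43, adjusted p = 0.0456; lost on leaving out knockdown replicate 1 or 3 or wild-type replicate 2, 3 or 4, with adjusted p of 0.0544 to 0.283; limma-voom also left it short of the threshold, with adjusted p = 0.05004).

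Among 16 tested genes of rRNA and cap methylation 4 rose, 2 fell and 10 did not pass, also 37.5% called, against 29.4% of all tested genes. Their median level was 46.5 CPM in knockdown and 39.5 CPM in wild-type, and 44.3% of all tested genes at 30 CPM or more were called. Cmtr2, an mRNA cap ribose methyltransferase, fell, at 13.2 ± 2.32 CPM in knockdown and 19.6 ± 3.23 CPM in wild-type (-0.57, adjusted p = 0.0157; lost on leaving out knockdown replicate 3 or wild-type replicate 4, with adjusted p of 0.0774 to 0.124). Pcif1, which methylates the adenosine next to the cap, fell, at 10.4 ± 2.17 CPM in knockdown and 15.3 ± 1.88 CPM in wild-type (-0.56, adjusted p = 0.0288; lost on leaving out knockdown replicate 2 or 3 or wild-type replicate 1 or 2, with adjusted p of 0.0534 to 0.152). Tgs1, which hypermethylates snRNA caps, rose, at 51.8 ± 0.972 CPM in knockdown and 41.04 ± 4.59 CPM in wild-type (0.33, adjusted p = 0.0226; lost on leaving out knockdown replicate 1, 2 or 3 or wild-type replicate 2, with adjusted p of 0.0538 to 0.0786). Ftsj3, an rRNA methyltransferase of ribosome assembly, rose with no overlap, at 346 ± 19.2 CPM in knockdown and 278 ± 22.4 CPM in wild-type (0.31, adjusted p = 0.000488). Nop56, a core protein of the snoRNPs that guide ribose methylation, also rose with no overlap, at 445 ± 4.80 CPM in knockdown and 369 ± 22.3 CPM in wild-type (0.27, adjusted p = 0.000935). Fbl, the snoRNA-guided ribose methyltransferase, was at 41.2 ± 2.44 CPM in knockdown and 37.9 ± 2.03 CPM in wild-type and did not pass (0.12, adjusted p = 0.478). Nat10, an RNA cytidine acetyltransferase, was at 33.5 ± 5.87 CPM in knockdown and 28.7 ± 2.51 CPM in wild-type and did not pass (0.22, adjusted p = 0.235).

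Among 12 further pseudouridine genes 2 rose and 10 did not pass (16.7% called, against 29.4% of all tested genes). Nhp2 and Nop10, which rose, are 2 of the 4 core proteins of the snoRNPs that guide pseudouridylation. Nhp2 was at 61.1 ± 5.36 CPM in knockdown and 48.3 ± 5.22 CPM in wild-type (0.34, adjusted p = 0.0156; lost on leaving out knockdown replicate 3 or wild-type replicate 4, with adjusted p of 0.0665 to 0.13). Nop10 was at 191 ± 15.4 CPM in knockdown and 161 ± 15.97 CPM in wild-type, with overlapping groups (0.25, adjusted p = 0.0142; lost on leaving out knockdown replicate 2 or 3 or wild-type replicate 4, with adjusted p of 0.0729 to 0.0958). Dkc1, the enzyme of that particle, was at 596 ± 43.9 CPM in knockdown and 551 ± 26.04 CPM in wild-type and did not pass (0.11, 95% interval -0.01 to 0.24). Gar1, the remaining core protein, was at 184 ± 11.3 CPM in knockdown and 187 ± 15.4 CPM in wild-type, with overlap, and did not pass (-0.03, adjusted p = 0.83). None of the 7 genes in a separate list of mitochondrial RNA modification passed with edgeR (0.0% called, against 29.4% of all tested genes), DESeq2 or limma-voom. With edgeR 0 had an unadjusted p under 0.05. That list leaves out mitochondrial genes counted above, such as Hsd17b10, which fell, and Trmt10c, Trmt61b and Nsun3, which did not pass. A list of 7 genes is too short for this share to be read as a result.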

How the data were processed

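The authors deposited 1 table of raw, unnormalized counts for 7 libraries of polyadenylated RNA, with a gene symbol on each line. Trimmomatic, STAR, HTSeq and the build mm10 are listed per the submitters' processing notes. For the annotation and the strand setting of the counting, nothing is given in the sources used here. The counts were fitted in edgeR 4.0.16 (R 4.3.3): filterByExpr kept 11594 genes, libraries were scaled by TMM factors, and the robust quasi-likelihood test compared 3 knockdown with 4 wild-type libraries with no covariate, Benjamini-Hochberg adjusted, threshold 0.05. The standard error (SE) is approximate, being the absolute log2 fold change over the square root of the F statistic. Positions and exon lengths come from GENCODE (GRCm38), matched by symbol for 99.4% of tested genes and for all 72 enzymes, 3 of them through a RefSeq synonym. The fit was tested on simulated data. No pair of libraries within a group differed as little as sampling noise (chi-square per degree of freedom 8.31 to 16.3).

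The enzymes and lists were chosen with earlier results of these data known. Genes named were every enzyme past the threshold, a set of well-known enzymes and cofactors whatever their values, and up to 4 genes past the threshold per cofactor list. Enzymes named beyond these, N6amt1, Thumpd2, Ftsj3, Nop56, Zc3h13, Ythdc1, the keratins, neighbouring genes and the ratios were chosen after their values were seen. Alternatives were RLE and upper-quartile factors, removal of Rn45s, no low-count filter, a minimum of 50 counts in 3 or more libraries, limma-voom from limma 3.58.1, DESeq2 1.42.0, a block for the replicate number, and the omission of each library in turn.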

Additional observations from a re-analysis of the deposited data

Results flagged for a closer look

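In 4 of 95 quantities searched, 1 of the 4 wild-type libraries stood far from the other 3 (the gap to the nearest over the group's whole range exceeded Dixon's 95% critical value); chance alone gives about 4.75. Adar was at 9.65 CPM in wild-type replicate 1, against 15.4 to 15.8 CPM in the other 3 wild-type libraries. Mettl23, a protein methyltransferase, was at 12.97 CPM in wild-type replicate 1, against 9.58 to 10.1 CPM in the other 3. Trmt112 was at 163.1 CPM in wild-type replicate 2, against 145.8 to 146.5 CPM in the other 3; without that library the gene still passed the threshold as lower in knockdown. Krt19, a keratin, was at 3.66 CPM in wild-type replicate 3, against 4.52 to 4.69 CPM in the other 3 wild-type libraries.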

How the results depend on the processing

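Across all settings 8 to 11 enzymes were called. All 9 calls were kept with RLE or upper-quartile factors, without Rn45s, with no or a stricter low-count filter, with DESeq2 and with limma-voom, and 7 of the 9 were kept in all 7 fits that left out a library (exceptions Mettl20 and Trmt1l). The median log2 fold change of the enzymes ranged from -0.063 to 0.044 when a library was left out. For the cofactor list the counts ranged from 5 to 12 higher and 3 to 6 lower when a library was left out. With limma-voom 6 were lower, Trit1 being past the threshold no longer (adjusted p = 0.05004). Under 10 CPM the median SE was 0.31 for the enzymes and 0.43 for all tested genes. In the higher ranges it was larger for the enzymes. It was 0.184 against 0.172 between 10 and 30 CPM, and 0.111 against 0.0937 at 30 CPM or more.

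No sign was found that the replicate numbers pair the samples: deviations of same-numbered libraries correlated at -0.034, -0.027 and -0.006. Correlations over all tested genes, many with low counts, cannot exclude a shared day or batch. No knockdown library correlated best with the wild-type library of its own number. With the replicate block 8 of 9 calls were kept, Mettl20 was not past the threshold (adjusted p = 0.0648), and the cofactor list had 8 genes higher and 3 lower. The cofactor calls not past the threshold under the block were, with adjusted p in brackets, Cmtr2 (0.0882), Fto (0.18), Igf2bp3 (0.147), Nhp2 (0.102), Nop10 (0.0878), Thumpd3 (0.0609), Trit1 (0.104) and Urm1 (0.0579). Under the block these uncalled enzymes took the other sign: Mettl5 -0.066, Pus10 0.13, Alkbh4 -0.0021, Mettl2 0.044, Mettl6 -0.022, Trmt10b -0.032. With limma-voom Trmt44 was at -0.040. The cause was not tested.

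The sign of 22 uncalled enzymes depended on the library left out, with log2 fold changes over the 7 fits of Adar -0.041 to 0.18, Alkbh4 -0.055 to 0.12, Alkbh7 -0.18 to 0.021, Dus1l -0.093 to 0.046, Mettl15 -0.18 to 0.079, Mettl23 -0.21 to 0.016, Mettl2 -0.12 to 0.039, Mettl3 -0.23 to 0.18, Mettl4 -0.047 to 0.29, Mettl5 -0.22 to 0.15, Mettl6 -0.078 to 0.15. The others ran over Mettl9 -0.14 to 0.0020, Nsun4 -0.070 to 0.24, Nsun6 -0.029 to 0.41, Pus10 -0.24 to 0.13, Pus1 -0.060 to 0.061, Pus7 -0.18 to 0.015, Trmt10b -0.045 to 0.18, Trmt11 -0.072 to 0.23, Trmt13 -0.12 to 0.27, Trmt2b -0.20 to 0.11 and Trmt44 -0.49 to 0.31. The keratin Krt8, also uncalled, ran over -0.079 to 0.35.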
